A study of Mus musculus with 39 samples.

Results

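The Cyp4 fatty acid omega-hydroxylases measured here are 6 genes of the mouse cytochrome P450 family 4, namely Cyp4a31, Cyp4a14, Cyp4f14, Cyp4f13, Cyp4f15 and Cyp4v3. They were chosen by name, as genes with a probe that carries their symbol alone, and are 6 of the 13840 genes with such a probe on the array. Each had 1 such probe, with a value on all 39 arrays. The study gave PPARα-null and wild-type mice, adult males of the 129SV background, daily gavage for 7 days and measured RNA from whole liver. In each genotype, 1 group received the ammonium salt of perfluorooctanoic acid (PFOA) at 1 mg/kg, 1 received PFOA at 3 mg/kg and 1 received deionised water, the PFOA vehicle. A further group of each genotype received 50 mg/kg of pirinixic acid, a drug-like PPARα agonist listed under a Wyeth code, and 1 received 0.5% methylcellulose, its vehicle. There were 4 arrays in every group except wild type with methylcellulose, which had 3, and the series states 4 animals per group. How the null allele was made, and in which cells, was not given in the sources used here. RNA was used at an integrity number of at least 8.5, and the p-values measure the spread between single livers.

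Family 4 enzymes are haem monooxygenases of the endoplasmic reticulum that add a hydroxyl group to the far (omega) end of fatty acids and related lipids. Alcohol and aldehyde dehydrogenases turn the product into a dicarboxylic acid, which peroxisomes shorten. In rodent liver, the Cyp4a genes are classic targets of PPARα, the nuclear receptor for fatty acids, and the Cyp4f enzymes are known for hydroxylating leukotrienes and vitamin E side chains.

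Before the results, 1 array has to be set apart. Replicate 3 of the wild-type mice given PFOA at 1 mg/kg, by its label, lay outside the other 3 arrays of its group for 5 of the 6 members, and inside the range of the null PFOA 1 mg/kg arrays for 4 of those 5. Cox6b2, a testis-type subunit of cytochrome c oxidase, was 9.06 on that array, against 16.38 to 16.95 on the other 3 and 6.96 to 10.05 on the null arrays at that dose. Not every gene lay in the null range. Ppara was 16.20 there, between the null arrays at that dose (15.57 to 15.95) and the other 3 (16.66 to 16.81). S100a8 was 11.03, above both (7.70 to 9.96 and 8.25 to 9.28). The array stays under its label. The wild-type PFOA 1 mg/kg differences printed for a member, the counts of called members that rest on it and the order of levels are also given without it. In the main fit all 10 groups share 1 estimate of the spread. The array therefore also enters the standard errors and adjusted p of every other difference, and these are given with it. The likeness between genes was computed with it. The arrays also split into sets of 16 and 23 that no label names, and all 4 wild-type arrays with pirinixic acid were in the larger set. The sets largely follow the replicate number. Most arrays of replicates 1 and 4 were in the smaller set, and all of replicate 2 and most of replicate 3 were in the larger. Correlations between arrays of the same group ranged from 0.928 to 0.974. The group means of 7 hepatocyte markers lay between 20.04 and 20.39. Ppara, the targeted gene, gave signal on every array, from 15.00 to 16.29 in null and from 15.62 to 16.84 in wild-type livers, so the ranges overlapped. It was lower in null livers with water, at 15.21 ± 0.14 against 16.20 ± 0.48 in wild type (SD, n = 4 each; limma adjusted p = 0.0488). Where its probe lies relative to the deletion is not stated, so the labels could not be checked with it.

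Cyp4a31 (chromosome 4, 115563627 to 115579015, GRCm38.p6) is a fatty acid hydroxylase gene of the Cyp4a cluster. In null livers its log2 signal was 7.27, 7.92, 7.05 and 8.80 with water, 11.02, 10.01, 10.87 and 10.05 with PFOA at 1 mg/kg, and 12.04, 12.40, 12.10 and 11.39 with 3 mg/kg. The 3 groups did not overlap, and each array at a higher dose lay above every array at the next lower one. Of the 4 water arrays, 3 lay below the mean of 583 probes of genes silent in liver, such as olfactory receptors, which was 8.68 to 9.23 on the arrays, so this water level is at background, while all PFOA arrays lay above it. The difference at 3 mg/kg, 4.22 ± 0.82 as measured, passed the test (limma adjusted p = 0.00944), and with each array below the silent-gene mean set to it the level was at least 9.26-fold higher with PFOA. It was 4.01 ± 0.55 within the smaller array set (adjusted p = 0.0472) and 4.33 ± 1.76 within the larger (adjusted p = 0.909), where 1 water array remained, and without null water replicate 3 it was 3.98 (adjusted p = 0.0519). At 1 mg/kg it was 2.72 ± 0.82 as measured, at least 3.29-fold by the same bound, with an adjusted p of 0.926 over all probes and an exact permutation p of 0.0286, the smallest that 4 arrays against 4 allow. With pirinixic acid, null livers read 7.56, 8.89, 7.95 and 8.22, against 6.36, 7.43, 7.41 and 10.43 with methylcellulose, and these groups overlapped. That difference was 0.25 ± 0.82, with a 95% confidence interval from -1.42 to 1.92 (limma adjusted p = 1). In each of these groups 3 of 4 arrays lay below the silent-gene mean, so it compares signals that are mostly at background.

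In wild-type livers Cyp4a31 read 9.65, 8.89, 10.31 and 10.43 with water, 16.46, 16.93, 10.89 and 16.80 with PFOA at 1 mg/kg, and 18.05, 17.53, 17.68 and 17.64 with 3 mg/kg. All treated arrays were above the water arrays, and the low value at 1 mg/kg belongs to replicate 3. Cyp4a31 rose 240-fold at 3 mg/kg as measured (7.91 ± 0.82, limma adjusted p = 1.32e-07). The silent-gene mean lay above 1 of the 4 wild-type water arrays, and with that array set to it the rise was at least 233-fold. At 1 mg/kg it rose by 5.45 ± 0.82 (limma adjusted p = 0.000467), and by 6.91 ± 0.57 without replicate 3 (adjusted p = 1.72e-09). With pirinixic acid it read 16.70, 16.67, 17.79 and 16.81, against 10.48, 10.54 and 9.85 with methylcellulose, again with no overlap. This was a rise of 104-fold (6.71 ± 0.88, limma adjusted p = 1.23e-05).

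Cyp4a14 (chromosome 4, 115486200 to 115496158) is a fatty acid hydroxylase gene of the same cluster, with Cyp4a10 between it and Cyp4a31. Null livers read 7.23, 12.53, 6.63 and 14.15 with water, 11.59, 11.43, 12.39 and 12.41 with PFOA at 1 mg/kg, and 13.69, 13.80, 12.62 and 14.89 with 3 mg/kg. The low pair of water arrays lay below the silent-gene mean, and the group spanned at least 42.8-fold when they are set to it, so that the PFOA arrays overlapped it. The difference at 3 mg/kg was 3.61 ± 1.65 and did not pass (limma adjusted p = 0.559). Within the array sets it was 4.95 ± 1.94 in the smaller and 0.68 ± 2.98 in the larger, which holds 1 water array. With pirinixic acid null livers read 8.97, 6.53, 8.70 and 10.72, against 8.21, 7.15, 13.97 and 14.54 with methylcellulose. The methylcellulose group was split like the water group, again with 2 arrays below the silent-gene mean, as were 3 with pirinixic acid, and the difference of -2.24 ± 1.65 did not pass (limma adjusted p = 1). The high water arrays, replicates 2 and 4, came from both array sets, and the larger set held both the lowest and the highest methylcellulose array. The part of the array sets in these splits was not tested.

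Wild-type Cyp4a14 was 11.79, 12.78, 15.47 and 14.76 with water, 20.26, 20.28, 11.65 and 20.21 with PFOA at 1 mg/kg, and 20.39, 20.36, 20.48 and 20.35 with 3 mg/kg. Outside replicate 3, the arrays at both doses lay within a narrow band far above water. It rose 103-fold at 3 mg/kg (6.69 ± 1.65, limma adjusted p = 0.0117), and within the array sets the values of 7.09 ± 2.12 and 6.30 ± 2.43 did not pass (adjusted p = 0.205 and 0.138). At 1 mg/kg the difference was 4.40 ± 1.65 (limma adjusted p = 0.318), and without replicate 3 it passed at 6.55 ± 1.49 (adjusted p = 0.0189). With pirinixic acid it read 20.06, 20.48, 20.60 and 20.24, against 11.73, 15.66 and 14.76 with methylcellulose. This rise was 78.4-fold (6.29 ± 1.78, limma adjusted p = 0.0304), and it kept its call in 2 of the 7 fits that leave out 1 array, the adjusted p reaching 0.167. Within the larger array set, which holds all 4 of these treated arrays, it was 5.13 ± 2.10 and did not pass (adjusted p = 0.237). On the treated wild-type arrays other than replicate 3, 32 to 78 probes were brighter than this one on the same array.

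**Figure D1:**
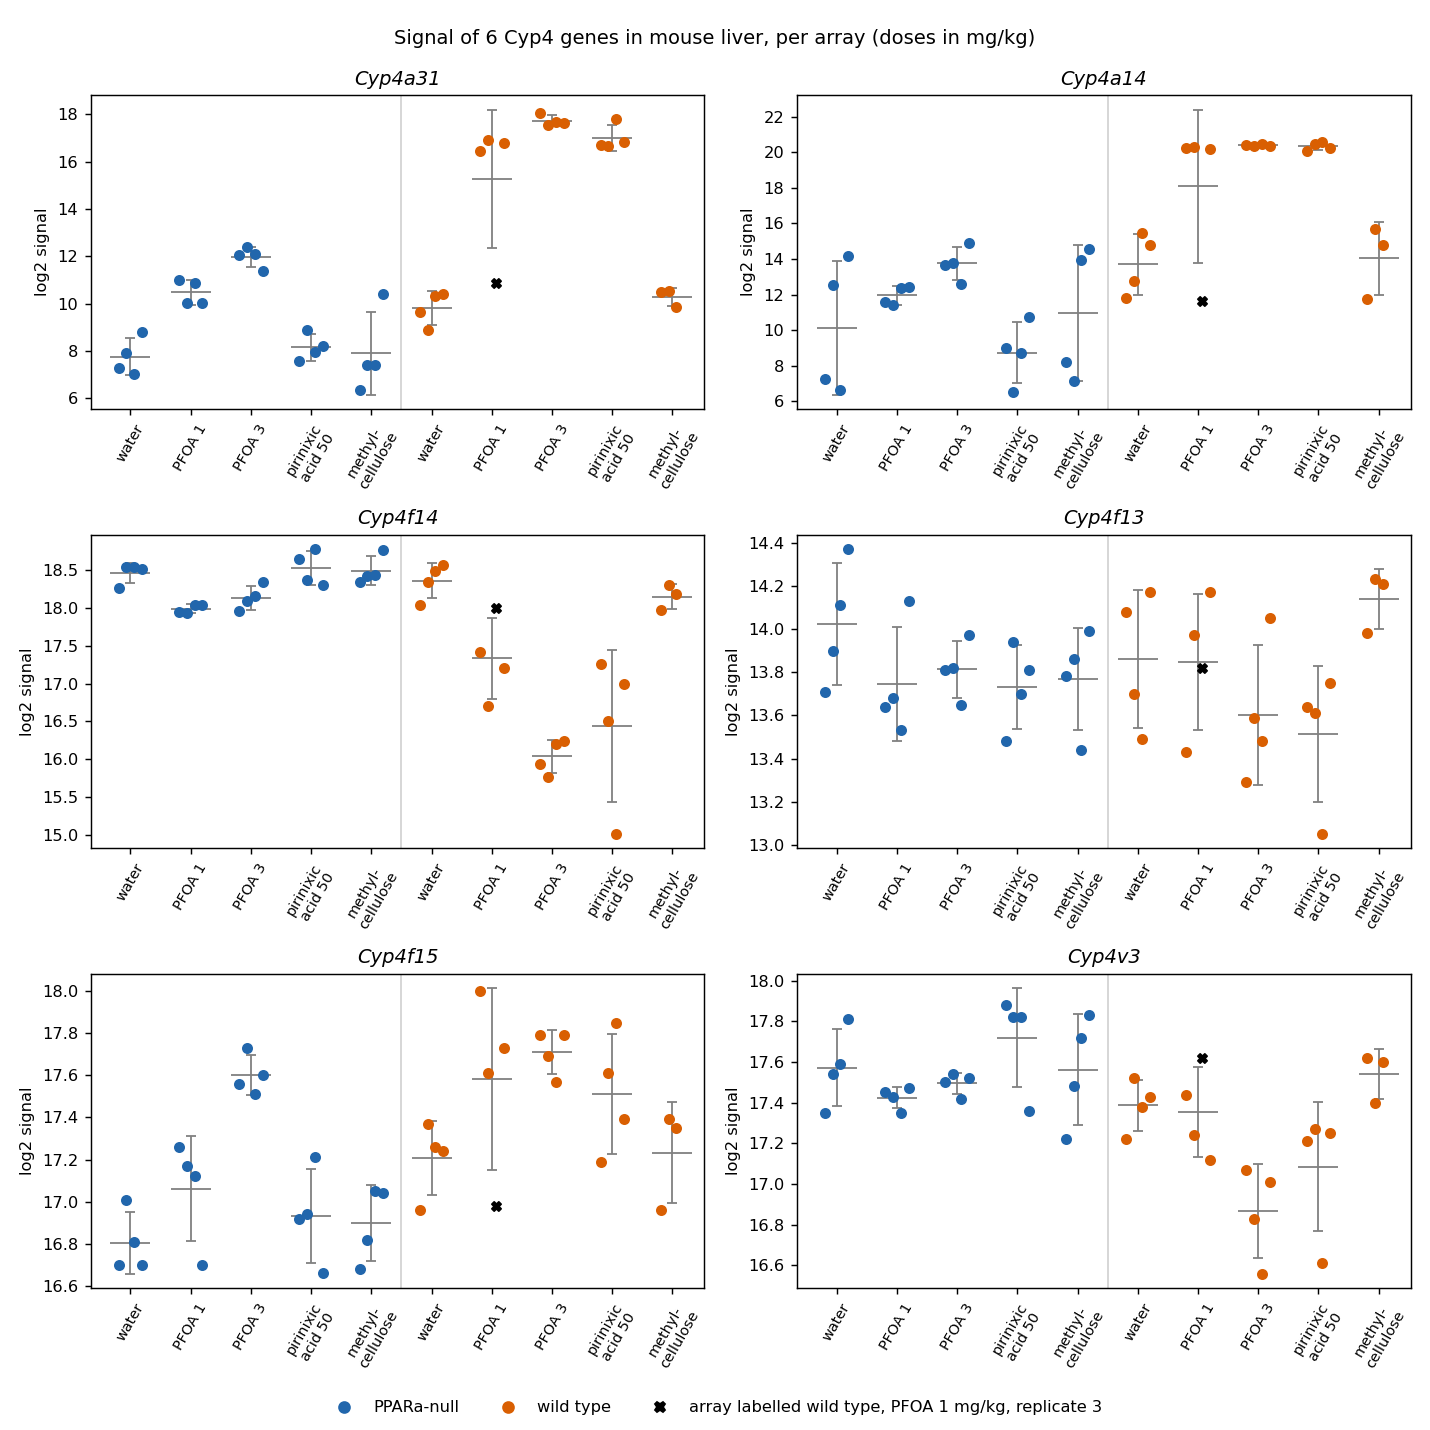
Log2 signal of the 6 genes on every array by group, with null groups left of wild-type groups; points are arrays, grey bars the group mean and SD, and the black cross replicate 3 of wild type at 1 mg/kg. Cyp4a31 in null livers steps up with PFOA dose, to between 11.39 and 12.40 at 3 mg/kg, and stays below the 17.53 to 18.05 of wild type.

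A further pair of Cyp4a probes are each shared by a pair of genes and cannot be given to either. The probe shared by Cyp4a31 and Cyp4a10 read 7.69, 14.08, 8.87 and 15.70 in null livers with water and 8.63, 8.57, 15.49 and 15.95 with methylcellulose, high and low on the same arrays as Cyp4a14. With PFOA it read 12.41 to 14.55 at 1 mg/kg and 15.30 to 16.50 at 3 mg/kg in null livers. Both ranges overlapped that with water, so this probe did not separate PFOA from water there. In wild type it read 13.59 to 17.80 with water and 20.01 to 20.62 with PFOA at 3 mg/kg, with no overlap. The probe shared by Cyp4a12a and Cyp4a12b read 18.85, 18.88, 19.28 and 18.54 in null livers with PFOA at 3 mg/kg, against 17.77, 17.46, 17.55 and 18.38 with water. These groups did not overlap, and the difference of 1.10 ± 0.24 passed (limma adjusted p = 0.0249). In wild type the same probe rose by 1.36 ± 0.24 with PFOA at 3 mg/kg (limma adjusted p = 0.000319) and by 0.89 ± 0.25 with pirinixic acid (adjusted p = 0.0312).

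**Figure D2:**
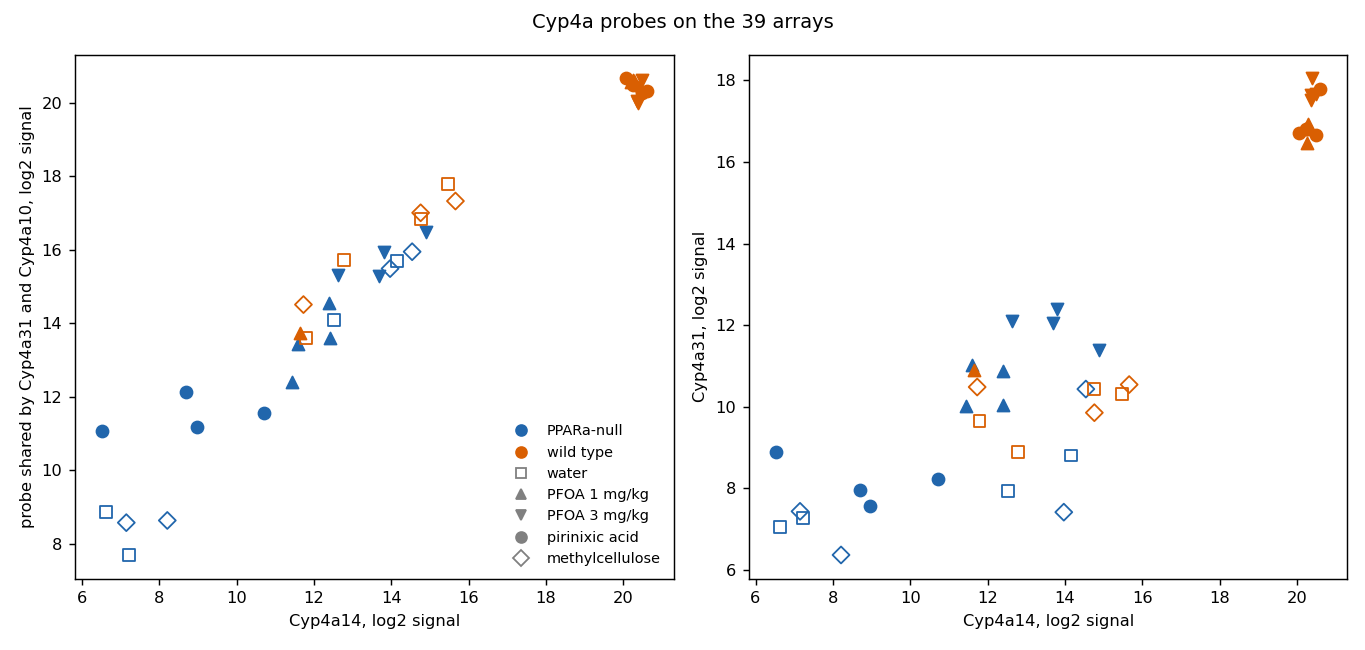
Log2 signal on the 39 arrays of the probe shared by Cyp4a31 and Cyp4a10 (left) and of Cyp4a31 (right), each against Cyp4a14; blue is PPARα-null, orange wild type, open symbols vehicles. The null vehicle arrays run from 6.63 to 14.54 for Cyp4a14, and those high for it are high for the shared probe as well.

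The 3 Cyp4f genes lie on chromosome 17, Cyp4f15 at 32685631 to 32703352, Cyp4f14 at 32903357 to 32917376 and Cyp4f13 at 32924688 to 32947415. Their responses, given next, run in different directions, so the 250 bases before a start site of each are shown, from RefSeq on GRCm38.p6, 5′ to 3′ on the gene's strand, with ATTGG, which is CCAAT on the other strand, in capitals. They are chr17:32917357-32917606 (minus) for Cyp4f14, which has 4 start sites in the table, chr17:32947362-32947611 (minus) for Cyp4f13 and chr17:32685409-32685658 (plus) for Cyp4f15.
Cyp4f14: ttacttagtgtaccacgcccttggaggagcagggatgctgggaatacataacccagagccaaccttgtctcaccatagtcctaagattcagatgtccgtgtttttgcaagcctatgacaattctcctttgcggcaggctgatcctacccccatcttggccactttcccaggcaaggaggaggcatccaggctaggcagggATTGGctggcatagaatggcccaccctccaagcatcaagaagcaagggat
Cyp4f13: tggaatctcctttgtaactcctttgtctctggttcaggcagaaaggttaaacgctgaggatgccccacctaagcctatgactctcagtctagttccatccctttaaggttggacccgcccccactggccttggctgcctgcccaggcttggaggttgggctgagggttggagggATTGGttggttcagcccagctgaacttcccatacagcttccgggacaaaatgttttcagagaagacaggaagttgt
Cyp4f15: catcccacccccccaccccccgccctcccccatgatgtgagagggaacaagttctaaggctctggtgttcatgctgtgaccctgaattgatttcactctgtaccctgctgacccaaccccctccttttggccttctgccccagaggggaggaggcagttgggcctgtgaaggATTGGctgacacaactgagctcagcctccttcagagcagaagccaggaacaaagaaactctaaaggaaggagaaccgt
The match starts 50 bases before the start site in Cyp4f14, 76 in Cyp4f13 and 78 in Cyp4f15. CCAAT on either strand is in 33.8% of 32851 such windows. The nuclear receptor half-site AGGTCA on either strand (14% of windows) is not in the 3 windows or in that of Cyp4v3, which also has no CCAAT, and so neither is its direct repeat with 1 base between (0.0335%). A match is a description of letters and not of binding. Cyp4a31 and Cyp4a14 are named only.

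Cyp4f14, known for hydroxylating leukotriene B4, ran opposite to the Cyp4a genes in wild type. In wild-type livers it read 18.04, 18.35, 18.49 and 18.57 with water, 17.42, 16.71, 18.00 and 17.21 with PFOA at 1 mg/kg, and 15.94, 15.77, 16.20 and 16.24 with 3 mg/kg. The arrays of the 3 groups did not overlap, although replicate 3 at 1 mg/kg lay just under the water arrays. At 3 mg/kg it fell (-2.32 ± 0.28, 5.0-fold lower; limma adjusted p = 2.26e-06). At 1 mg/kg the difference was -1.03 ± 0.28 (limma adjusted p = 0.141), and without replicate 3 it passed at -1.25 ± 0.29 (adjusted p = 0.0234). With pirinixic acid it read 17.26, 16.50, 15.01 and 16.99, against 17.97, 18.30 and 18.18 with methylcellulose, with no overlap. It fell by 1.71 ± 0.31 on the log2 scale (limma adjusted p = 0.000702), and within the larger array set the difference was -1.80 ± 0.47 (adjusted p = 0.0782).

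In null livers every Cyp4f14 array lay between 17.93 and 18.78. The null differences were -0.48 ± 0.28 with PFOA at 1 mg/kg, -0.33 ± 0.28 at 3 mg/kg and 0.03 ± 0.28 with pirinixic acid, and none passed (limma adjusted p = 1, 0.821 and 1). At 1 mg/kg the null arrays, 17.95, 17.93, 18.04 and 18.04, did lie below all water arrays, 18.27, 18.54, 18.54 and 18.52 (exact permutation p = 0.0286, the smallest possible).

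Cyp4f15, another fatty acid hydroxylase gene, changed over a smaller range. Null livers read 16.70, 17.01, 16.81 and 16.70 with water, 17.26, 17.17, 17.12 and 16.70 with PFOA at 1 mg/kg, and 17.56, 17.73, 17.51 and 17.60 with 3 mg/kg. The arrays at 3 mg/kg lay above all other null arrays with water or PFOA. The rise at 3 mg/kg was 1.74-fold (0.80 ± 0.18, limma adjusted p = 0.0309), and it kept its call in 1 of the 8 fits that leave out 1 array, the adjusted p reaching 0.126. Within the array sets it was 0.84 ± 0.21 and 0.61 ± 0.35, and neither passed (adjusted p = 0.252 and 1). Wild-type livers read 17.79, 17.69, 17.57 and 17.79 with PFOA at 3 mg/kg, against 16.96, 17.37, 17.26 and 17.24 with water. These groups did not overlap, but the difference of 0.50 ± 0.18 did not pass (limma adjusted p = 0.0901). At 1 mg/kg wild-type livers read 18.00, 17.61, 16.98 and 17.73, a difference of 0.37 from water (limma adjusted p = 0.434). The low value is replicate 3, and the other arrays lay above all water arrays. Without replicate 3 the difference was 0.57 ± 0.17 and did not pass (adjusted p = 0.107).

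Cyp4f13, the third Cyp4f gene, lay between 13.05 and 14.37 on all arrays, and no difference passed. Its largest treated difference was with pirinixic acid in wild type, where it read 13.64, 13.61, 13.05 and 13.75, against 13.98, 14.23 and 14.21 with methylcellulose. The groups did not overlap, at -0.62 ± 0.21 (limma adjusted p = 0.0717).

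Cyp4v3 (chromosome 8, 45305801 to 45333163) is the mouse counterpart of human CYP4V2, a fatty acid hydroxylase gene mutated in a crystalline dystrophy of the retina. In wild-type livers it read 17.07, 16.83, 16.56 and 17.01 with PFOA at 3 mg/kg, against 17.22, 17.52, 17.38 and 17.43 with water. The groups did not overlap, and it fell by 0.52 ± 0.16 on the log2 scale (limma adjusted p = 0.0446), a call kept in 2 of the 8 fits that leave out 1 array, the adjusted p reaching 0.201. It was -0.28 ± 0.23 within the smaller array set and -0.76 ± 0.24 within the larger, and neither passed (adjusted p = 0.723 and 0.0756). At 1 mg/kg Cyp4v3 differed from water by -0.03 (limma adjusted p = 0.969), and by -0.12 ± 0.17 without replicate 3 (adjusted p = 0.878). With pirinixic acid it read 17.21, 17.27, 16.61 and 17.25, against 17.62, 17.40 and 17.60 with methylcellulose, and the difference of -0.46 ± 0.17 did not pass (limma adjusted p = 0.108). In null livers it lay between 17.22 and 17.88, and no difference passed.

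Read as a group, the members were called as follows. With PFOA at 3 mg/kg, 2 of 6 rose and none fell in null livers, where 0.261% of the 25295 probes were called higher and 0.0395% lower, 0.3% in all. In wild-type livers at that dose 2 rose and 2 fell, against 3.37% of probes higher and 2.46% lower, 5.82% in all. With PFOA at 1 mg/kg, limma called none in null livers, where 0.0119% of probes were called, and 1 member and 1003 of the 25295 probes had an unadjusted p under 0.05. In wild-type livers 1 rose, against 0.241% of probes higher and 0.0316% lower, 0.273% in all. Without replicate 3, 2 rose and 1 fell, against 0.826% higher and 0.158% lower, 0.984% in all. With pirinixic acid, limma called no member and no probe in null livers, where 0 members and 691 probes had an unadjusted p under 0.05. In wild-type livers 2 rose and 1 fell with it, against 2.8% of probes higher and 3.3% lower, 6.1% in all. The PFOA differences at both doses share the water arrays of their genotype.

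**Figure D3:**
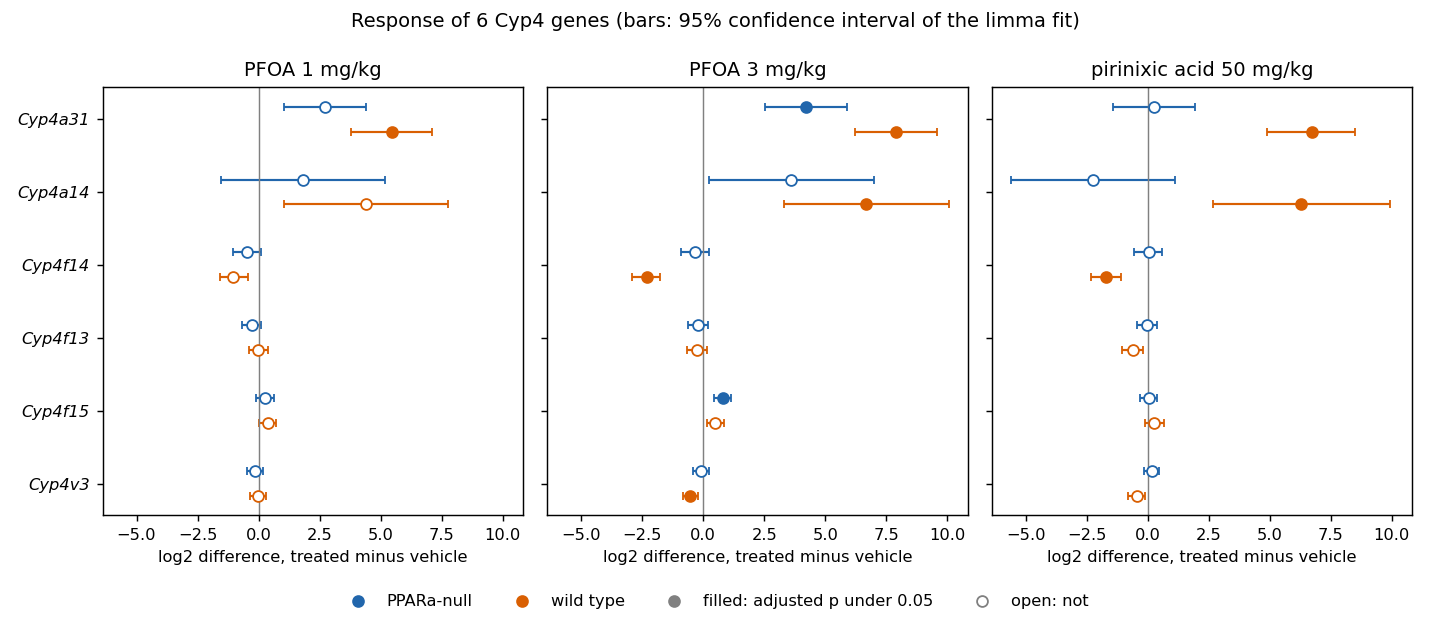
Treated minus vehicle on the log2 scale for each gene, PPARα-null in blue above wild type in orange; bars are 95% confidence intervals of the limma fit and filled points have an adjusted p under 0.05. In null livers Cyp4a31 (4.22 as measured) and Cyp4f15 (0.80) are filled, both with PFOA at 3 mg/kg.

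Whether the response itself differed between genotypes was tested directly, taking the response in wild type from that in null livers. With pirinixic acid Cyp4a31 responded less in null livers (-6.46 ± 1.21, limma adjusted p = 0.00504) and Cyp4f14, which fell in wild type and was at 0.03 ± 0.28 in null livers, passed the other way (1.74 ± 0.42, adjusted p = 0.0298), 1 member in each direction, against 0.542% of probes lower and 0.696% higher, 1.24% in all. The Cyp4f14 call was kept in 9 of 15 fits that leave out 1 array, and within the larger array set, the one with such arrays, both values were similar but missed the threshold (-6.80 ± 1.81 and 1.83 ± 0.68, adjusted p = 0.131 and 0.24). With signals below the silent-gene mean set to it the Cyp4a31 value was -7.00. Cyp4a14 differed by -8.53 ± 2.43 and did not pass (limma adjusted p = 0.0694). With PFOA at 3 mg/kg Cyp4f14 passed (1.99 ± 0.40, limma adjusted p = 0.0149), the only member called, against 0.083% of probes higher and 0.332% lower, 0.415% in all. Within the array sets Cyp4f14 was at 1.92 ± 0.35 and 2.01 ± 0.85 and did not pass (adjusted p = 0.127 and 0.55), nor did it with the silent-gene mean as a covariate (adjusted p = 0.0629). Cyp4a31 differed by -3.69 ± 1.16 there, with a 95% confidence interval from -6.05 to -1.32 (limma adjusted p = 0.189). With signals below the silent-gene mean set to it this Cyp4a31 value was -4.65. The difference passed in 1 of 8 alternative fits, that of only the groups compared, which holds no PFOA 1 mg/kg array (limma adjusted p = 0.00457). It passed in 0 of 16 fits that leave out 1 array of the groups compared. All of these keep wild-type PFOA 1 mg/kg replicate 3 in the shared spread, so they do not show how the result depends on that array. With PFOA at 1 mg/kg limma called no member and no probe, while 1 member and 1274 probes had an unadjusted p under 0.05. Without replicate 3, Cyp4a31 passed there at -4.19 ± 0.77 (limma adjusted p = 0.0081), 1 member lower, against 0.154% of probes lower and 0.00791% higher, 0.162% in all.

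**Figure D4:**
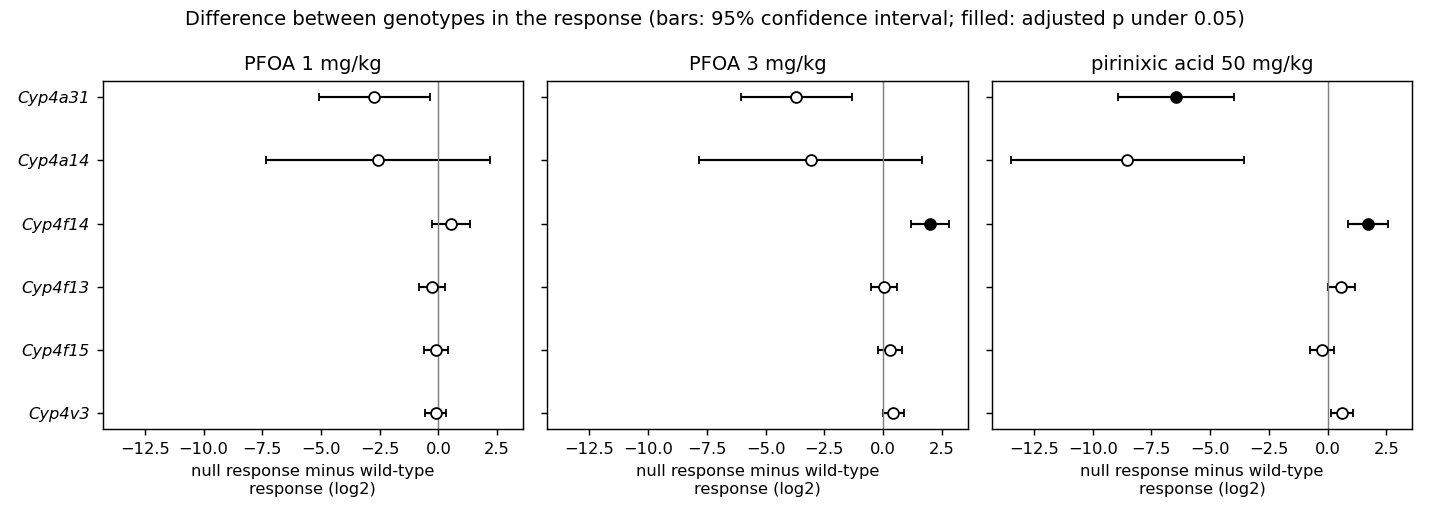
Difference of the responses, null minus wild type, on the log2 scale with 95% confidence intervals; filled points have an adjusted p under 0.05. Cyp4f14 is filled at 1.99 with PFOA at 3 mg/kg and at 1.74 with pirinixic acid, and Cyp4a31 at -6.46 with pirinixic acid.

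Pirinixic acid and PFOA were given at different doses and in different vehicles, so their responses are set side by side. In null livers the Cyp4a31 difference from vehicle was 4.22 with PFOA at 3 mg/kg and 0.25 with pirinixic acid. The difference of these responses was 3.97 ± 1.16, with a 95% confidence interval from 1.61 to 6.33 (limma adjusted p = 0.503). No member was called in that comparison in either genotype, where limma called 0.0474% of probes in null, all higher, and 0.0119% in wild type (0.00395% higher, 0.00791% lower), and 3 members and 1304 probes had an unadjusted p under 0.05 in null, and 0 members and 3392 probes in wild type.

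Without treatment, no member was called between genotypes, where 0.127% of probes were called with water (0.0553% higher, 0.0712% lower) and 0.186% with methylcellulose (0.0356% higher, 0.15% lower), and an unadjusted limma p was under 0.05 for 3 members and 2723 probes with water and for 1 member and 3158 probes with methylcellulose. Cyp4a31 was 7.76 ± 0.78 in null and 9.82 ± 0.71 in wild-type livers with water (SD, n = 4 each), and the arrays did not overlap (-2.06 ± 0.82, limma adjusted p = 0.42). Of these, 3 of the 4 null arrays and 1 of the 4 wild-type arrays lay below the silent-gene mean. With those arrays set to it the difference was -1.09. Between 3 and 1 mg/kg of PFOA no member was called in null (0.00791% of probes) or wild-type livers (0.0277%, 0.0158% higher and 0.0119% lower), with an unadjusted limma p under 0.05 for 1 member and 1155 probes in null and for 3 members and 1898 probes in wild type. Without replicate 3 the wild-type Cyp4a31 difference between doses was 1.00 ± 0.57, against 2.46 ± 0.82 with it, and still none passed (0.00791% of probes, 0.00395% in each direction). Between methylcellulose and water limma called no member and no probe in either genotype, and 0 members had an unadjusted p under 0.05, against 2931 probes in null and 2191 in wild type.

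Ordered by group mean, Cyp4a31 was highest in wild type with PFOA at 3 mg/kg (17.73), then in wild type with pirinixic acid (16.99) and with PFOA at 1 mg/kg (15.27), and lowest in null with water (7.76). Neighbouring groups in that order overlapped in 8 of 9 pairs, the exception being null with PFOA at 3 mg/kg (11.98) over null with 1 mg/kg (10.49). For each of the other 5 members all 9 neighbouring pairs overlapped. Without replicate 3 the Cyp4a31 mean in wild type at 1 mg/kg was 16.73, in the same place in the order, and its arrays then lay apart from the next group, null with PFOA at 3 mg/kg, so that 7 of 9 pairs overlapped. Without it Cyp4a14 in wild type at 1 mg/kg (20.25) also lay apart from the next group, wild type with methylcellulose, and Cyp4f14 in null at 1 mg/kg (17.99) from the next, wild type at 1 mg/kg, leaving 8 of 9 pairs for each, while all 9 overlapped for Cyp4f13, Cyp4f15 and Cyp4v3. For Cyp4f15 the order changed, wild type at 1 mg/kg moving from rank 3 (17.58) to rank 1 (17.78) without replicate 3.

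The enzymes that follow omega-hydroxylation were counted from lists of the same pathway. Of all 25295 probes, limma called 3.37% higher in wild type with PFOA at 3 mg/kg and 2.8% with pirinixic acid. In null livers with PFOA at 3 mg/kg it called 0.261% higher. At 1 mg/kg in wild type it called 0.241% higher, and 0.826% without replicate 3. Of 10 measured genes for peroxisomal oxidation of dicarboxylic acids, 7 rose in wild-type livers with PFOA at 3 mg/kg, with a median of 1.51 against -0.02 over all probes, and 7 with pirinixic acid (median 1.57 against -0.03). Ehhadh, the peroxisomal bifunctional enzyme, rose by 4.47 ± 0.52 with PFOA at 3 mg/kg and by 4.81 ± 0.56 with pirinixic acid. In null livers with PFOA at 3 mg/kg 1 of the 10 rose, the thiolase Acaa1b (1.60 ± 0.27, limma adjusted p = 0.00137), and the list median was 0.30 against -0.03. With 1 mg/kg 3 of 10 rose in wild type, and 6 without replicate 3.

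Of 13 alcohol and aldehyde dehydrogenases, 4 rose in wild-type livers with PFOA at 3 mg/kg and 4 with pirinixic acid, with medians of 0.09 and 0.15 against -0.02 and -0.03 over all probes. In null livers limma called none, while 3 had an unadjusted p under 0.05 with PFOA at 1 mg/kg, 6 at 3 mg/kg and 0 with pirinixic acid. Of all 25295 probes, 1003, 2111 and 691 had such a p in these differences. Aldh3a2, the fatty aldehyde dehydrogenase, rose by 2.95 ± 0.36 with PFOA at 3 mg/kg and by 1.87 ± 0.38 with pirinixic acid in wild type, and in null livers at 3 mg/kg Aldh3a2 was at 2.3-fold of water and did not pass (limma adjusted p = 0.217). Of 10 genes of P450 electron transfer and haem synthesis, 2 rose in wild type with PFOA at 3 mg/kg, among them Alas1, the first enzyme of haem synthesis (2.61 ± 0.52). Of 12 eicosanoid genes, 1 rose in null livers with PFOA at 3 mg/kg, the epoxide hydrolase Ephx1 (0.87 ± 0.13, limma adjusted p = 0.000244). In wild type 2 rose at that dose, Ephx1 by 0.83 ± 0.13 and the soluble epoxide hydrolase Ephx2 by 1.23 ± 0.27, and 1 with pirinixic acid, Ephx2 by 1.21 ± 0.29. Of 3 other measured Cyp4 genes, 2 fell in wild type with PFOA at 3 mg/kg, Cyp4f18 (-0.72 ± 0.22) and Cyp4f39 (-1.26 ± 0.37). With pirinixic acid 2 of the 3 also fell in wild type, with a list median of -0.72 against -0.03 over all probes. None of 7 lipid- and xenobiotic-sensing receptors was called by limma in the 6 treated groups against vehicle, and at most 1 of them had an unadjusted p under 0.05 in any of these.

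A few markers of other cells were called in null livers with PFOA at 3 mg/kg, where Cyp4a31 and Cyp4f15 rose. S100a8, 1 of 4 neutrophil markers, was 15.55 ± 0.71 with PFOA and 8.11 ± 0.57 with water (SD, n = 4 each). The other neutrophil markers were not called, at -0.28 for S100a9, -0.36 for Ltf and 0.63 for Camp, and the list median was 0.17 against -0.03 over all probes. The list averaged 9.92 to 11.68 on the PFOA arrays, against 8.45 to 8.97 on the water arrays, a difference that S100a8 carries. Col1a1, 1 of 5 stellate cell markers, was 14.49 ± 0.85 with PFOA and 11.39 ± 0.39 with water, with a list median of 0.18 and the other 4 between -0.71 and 0.19 and not called. That list averaged 12.73 to 13.14 on the PFOA arrays, against 12.25 to 12.87 on the water arrays.

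In wild type with pirinixic acid, 4 of 8 Kupffer cell markers (median -0.72), 3 of 6 endothelial markers (median -0.53) and 1 of 7 hepatocyte markers (median -0.26) were lower, against a median of -0.03 over all probes. The Kupffer list averaged 12.23 to 12.51, against 12.77 to 13.09 with methylcellulose, and the endothelial list 12.37 to 13.01, against 12.79 to 13.14. In wild type with PFOA at 3 mg/kg, 1 Kupffer, 1 stellate, 1 hepatocyte and 2 endothelial markers were lower and 1 endothelial marker was higher, with list medians of -0.50, -0.52, -0.07 and -0.08. The part of these markers in the Cyp4 results was not tested, and in whole liver fewer cells of a type and less RNA per cell cannot be told apart.

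The genes most like each member were those with the smallest root mean square difference from it over the 10 group means, after centring. For Cyp4a31, whose own group means had a root mean square of 3.56 log2 units, they were Krt23 (1.41), Ston1 (1.42), Hes7 (1.47), Serinc2 (1.81) and Ehhadh (1.88). For Cyp4a14, at 3.92, they were Ston1 (1.60), Krt23 (1.81), Cox6b2, Hes7 and Serinc2. Krt23, Ston1, Hes7 and Serinc2 are thus on both lists. For Cyp4f14, at 0.85, they were Hsd3b2 (0.20), Ifitm1 (0.21), C8b, Pla1a and Pigr. Cyp4f13 (Ddx50, Trir, Itpkc, Eng and Masp2), Cyp4f15 (Grpel1, Psma3, Atl3, Creg1 and Dcakd) and Cyp4v3 (Nudt4, Pon1, Proc, Lgmn and F13b) varied by only 0.17, 0.31 and 0.24, so that many nearly constant genes come close to them.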

How the data were processed

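Total liver RNA of adult male mice was hybridised to the Mouse Genome Survey Microarray of Applied Biosystems. The authors deposited 1 table of log2 signals for 39 arrays and 33012 probes. Unit and log base were read from the values (4.85 to 21.5), and the median is 9.14 on every array, so the values had been normalised between arrays before deposit; how, and why some values are missing, was not stated. They were used as deposited. No detection flag was used, so the mean of 583 probes of genes silent in liver (sensory receptors of smell and taste, and proteins of hair) stands for background, and a fold given as at least a value was computed with each array below it set to it; this was added after the values were seen. The number of arrays limits the precision.

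For the 25295 probes measured on every array, limma 3.58.1 (R 4.3.3) was used (lmFit and eBayes, 1 mean per group, all 10 groups sharing 1 estimate of the spread), and 17 differences were tested two-sided. A probe was called at a Benjamini-Hochberg adjusted p under 0.05 over all 25295 probes. Errors of differences are standard errors of this fit, and those of group means are standard deviations. Exact permutation tests over arrays (scipy 1.17.1) were run on single differences between groups. The fit was tested on simulated data.

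Members were taken by the single gene symbol of their probe in the platform annotation. The members and gene lists were chosen with earlier results of these data known. The genes named are the members, Ppara, up to 4 genes per list with the smallest adjusted p in each difference described, and, for each member, the 5 genes with the most similar group means; Cox6b2 and the cell markers named were picked after their values were seen. The CCAAT motif was chosen after the promoter sequences had been seen. Replicate numbers are shared between groups, but the deviations of same-numbered arrays correlated between -0.263 and 0.209, not over 0.1 for every pair, so the numbers were not taken to pair arrays. The array sets largely follow the replicate numbers, so this check does not show that the numbers carry no shared block. The alternatives were a replicate block, array set as a block, a covariate from genes silent in liver, centring on the 75th percentile, a robust trended prior, other probe filters, fits of only the groups compared, and each array left out in turn. An array was left out only for the differences that use its group. Fits within each array set were added after seeing the data.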

Additional observations from a re-analysis of the deposited data

Results flagged for a closer look

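In groups of 4 arrays, an array far from the others of its group was found in 6 of 54 groups tested over the members. For a single test chance gives about 1 in 20, but the members were read on the same arrays, so the 54 tests are not independent. In wild type with PFOA at 1 mg/kg, on replicate 3, Cyp4a31 was 10.89 and Cyp4a14 11.65. On wild-type arrays with pirinixic acid, Cyp4a31 had 1 high array at 17.79 and Cyp4v3 1 low array at 16.61, both replicate 3, on which Cyp4f14 (15.01) and Cyp4f13 (13.05) were also lowest. In null livers Cyp4f14 had 1 low array with water at 18.27, and Cyp4v3 1 low array with pirinixic acid at 17.36.

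The response differed between genotypes, by the test of the difference itself, for Cyp4a31 with pirinixic acid (-6.46, null minus wild type) and for Cyp4f14 with PFOA at 3 mg/kg (1.99) and with pirinixic acid (1.74).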

How the results depend on the processing

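The counts of members called changed by more than 1.5 times as follows, and no call changed direction. Fits of only some groups or of 1 array set have fewer arrays; otherwise the cause was not tested. A lone array of a group in an array set was assumed to vary like the other groups. For PFOA at 3 mg/kg in null livers (2 called) the count was 1 with all probes kept, 1 in a fit of only the groups compared, 1 within the smaller and 0 within the larger array set, and 0 to 1 without any 1 of 7 of the 8 arrays; Cyp4a31 lost its call without null water replicate 3 (3.98, limma adjusted p = 0.0519). For PFOA at 1 mg/kg in wild type (1 called) it was 0 in a fit of only the groups compared, 0 within the larger set and 3 without replicate 3 of that group. For PFOA at 3 mg/kg in wild type (4 called) it was 2 within each set. For pirinixic acid in wild type (3 called) it was 5 with only probes above the median signal and 1 within the larger set. Between genotypes, the count for PFOA at 1 mg/kg (0) was 1 without wild-type PFOA 1 mg/kg replicate 3; for PFOA at 3 mg/kg (1) it was 0 with the covariate from genes silent in liver, 2 in a fit of only the groups compared and 0 within each set; for pirinixic acid (2) it was 1 in a fit of only the groups compared, 0 within the larger set and 1 without each of 5 arrays. The replicate numbers were not taken to pair arrays, although the array sets largely follow them. With the replicate number as a block, 4 members were called with pirinixic acid in wild type, Cyp4f13 joining at -0.72 (limma adjusted p = 0.00538). The other counts of called members did not move with that block. No other probe of a member carries its symbol alone, so the alternative of other probes was not run. Ranking likeness by the 6 responses kept 3, 3, 1, 1, 1 and 0 of 5 genes for Cyp4a31, Cyp4a14, Cyp4f14, Cyp4f13, Cyp4f15 and Cyp4v3.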
